A study of Homo sapiens with 4 samples.

Results

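Position 26 and the anticodon stem were described in 48 tRNA references, which are named by amino acid and anticodon. The members were all nucleotides with canonical tRNA numbers 26 to 31 and 39 to 43, chosen by their number alone, and made up 528 of the 3621 numbered nucleotides (11 positions in each of 48 references). The tRNA came from HCT116, an established human colorectal carcinoma cell line, either lacking TRMT1L (TRMT1L KO, 2 libraries) or wild type (WT, 2 libraries), and was purified by ion exchange and read as native RNA in a nanopore by Nano-tRNAseq. Every sample carried the same culture conditions, and the labels give neither the way the knockout was made, nor the number of clones, nor whether replicates were grown separately. The p-values therefore reflect the spread among the 4 libraries alone, and that spread may be technical. No mRNA or protein was measured, so the loss of TRMT1L could not be checked in these data.

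Position 26 is the hinge between the D stem and the anticodon stem. In many human tRNAs its guanosine is converted to dimethylguanosine by TRMT1. TRMT1L, a homologue of that enzyme, makes the same modification at the neighbouring position 27 of tyrosine tRNA, as the title of the series states. The anticodon stem holds up the anticodon loop and is formed by 5 base pairs, 27 with 43, 28 with 42, 29 with 41, 30 with 40 and 31 with 39. Uridines in it are common targets of pseudouridine synthases, PUS1 at positions 27 and 28 and PUS3 at position 39. In the nanopore a modified nucleotide can make the base caller read a wrong base (mismatch), skip a base (deletion) or add a base (insertion), and the sum of the rates of these errors is called the summed error here. It does not name a modification or give its stoichiometry, and a modification may raise or lower it. The files give no reference bases, so a level cannot be tied to guanosine or uridine at a site, and where identical bases follow each other the aligner may put a deletion on any of them.

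Across the 528 members the median summed error was 31.6% and 32.4% in the TRMT1L KO libraries, against 31.3% and 30.8% in the WT libraries. All numbered sites had medians of 26.3% and 26.4% in TRMT1L KO, against 25.5% and 24.6% in WT. The libraries of a genotype differed at a member by a median SD of 1.14 points in TRMT1L KO and 1.24 points in WT. TRMT1L KO minus WT had a median of 0.826 points over the members and 0.818 points over all numbered sites, so small rises across the stem did not set it apart from the rest of the molecule. Read depth is unknown, since the files hold rates only, and no counting interval can be given. Closely similar references may share reads.

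Among these 11 positions, base-calling error in WT was highest at position 26 and next highest at position 27. The median summed error over the references was 60.01% at position 26 and 53.3% at position 27, while position 25, just before them in the D stem, had 23.8%. Further along the 5' strand of the stem it was 26.6% at position 28, 26.02% at position 29, 19.2% at position 30 and 21.5% at position 31. On the 3' strand it was 45.4% at position 39, 24.7% at position 40, 32.5% at position 41, 31.5% at position 42 and 34.1% at position 43. Positions 26, 27 and 39 thus stood above the others in the stem in WT. The medians of the single WT libraries lay close to these values, 59.9% and 60.1% at position 26, 52.6% and 53.3% at position 27, 25.9% and 25.3% at position 28, and 43.9% and 46.5% at position 39. The TRMT1L KO libraries had medians of 63.9% and 62.5% at position 26, 51.3% and 49.4% at position 27, 26.3% and 26.4% at position 28, and 44.9% and 44.3% at position 39.

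At position 26 the WT summed error ran through nearly the whole scale among references, with a lowest value of 9.17%, quartiles of 30.8% and 77.8%, and a highest value of 95.6%. In 27 references it was at least 50% and in 9 it was under 20%. The highest values belonged to Val-CAC-1-1 (95.5% and 95.8% in the WT libraries), Val-AAC-1-4 (93.6% and 93.5%), Ile-AAT-8-1 (91.6% and 91.8%), Arg-TCG-1-1 (88.9% and 89.6%) and Thr-AGT-3-1 (85.4% and 85.6%). The lowest belonged to Asp-GTC-2-6 (9.91% and 8.43%), Glu-CTC-1-1 (8.66% and 10.6%) and Cys-GCA-3-1 (9.38% and 10.4%). High and low references were separated by far more than the difference between the WT libraries of any of them. References of some amino acids had like levels: the 3 threonine references had 80.5% to 85.5% and the 4 serine references 70.2% to 83.7%. At the low end the 2 glutamine references had 32.3% to 33.7%, the 3 proline references 25.4% to 31.2% and the 2 glutamate references 9.63% to 14.8%. Others were spread more widely. The 3 isoleucine references had 64.04% to 91.7%, the 3 valine references 66.2% to 95.6% and the 5 leucine references 54.9% to 80.2%. Alanine references had 49.4% to 67.5%, glycine references 11.6% to 36.1% and lysine references 12.4% to 41.2%. The 5 arginine references were spread over 22.5% to 89.2%.

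The kind of error at position 26 also differed among references with a high sum. In WT, mismatch was the largest kind in 32 references, deletion in 15 and insertion in 1. Threonine references carried mostly mismatches, 68.4% to 74.2%, with deletions of 7.90% to 9.19%. In Ile-AAT-8-1 mismatch was 72.99% and deletion 18.1%, and in Arg-TCG-1-1 they were 64.6% and 23.8%. The valine references had more even parts: Val-CAC-1-1 had 51.2% mismatch and 44.3% deletion in WT. Deletion led in both tyrosine references, with 44.6% against 15.9% mismatch in Tyr-GTA-2-1 and 32.4% against 14.3% mismatch in Tyr-ATA-1-1. Tyr-GTA-2-1 had the highest WT deletion rate of all 48 references at this position. Insertion was a minor part, with a median of 1.29% and a highest value of 9.66%.

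Within an amino acid the balance of mismatch and deletion at position 26 was often unlike between anticodons. In each pair of values that follows, the WT mean of mismatch comes before that of deletion. Among leucine references, Leu-CAG-1-4 had 71.2% and 5.32%, Leu-CAA-4-1 had 65.3% and 10.8%, Leu-TAA-1-1 had 57.9% and 21.98%, Leu-TAG-1-1 had 42.9% and 10.7% and Leu-AAG-2-3 had 11.2% and 42.3%. Leu-AAG-2-3 was thus led by deletion, unlike the other 4. Among serine references, Ser-TGA-1-1 had 57.1% and 24.9%, Ser-CGA-2-1 had 55.7% and 27.01%, Ser-GCT-5-1 had 32.2% and 36.03% and Ser-AGA-2-5 had 29.4% and 42.1%, so that mismatch led in the first pair and deletion in the second. For isoleucine, Ile-AAT-8-1 had 72.99% and 18.1%, Ile-GAT-1-1 had 60.1% and 21.1% and Ile-TAT-3-1 had 50.5% and 12.9%, all led by mismatch. For arginine, Arg-TCG-1-1 had 64.6% and 23.8%, Arg-ACG-1-2 had 28.5% and 39.5%, Arg-TCT-1-1 had 19.9% and 17.4%, Arg-CCT-1-1 had 18.1% and 8.45% and Arg-CCG-2-1 had 8.16% and 11.1%. The elongator and initiator methionine references had like mismatch but unlike deletion rates, as Met-CAT-5-2 had 51.9% and 25.1% and iMet-CAT-1-6 had 50.8% and 13.8%. Phe-GAA-2-1 had nearly equal rates of 36.05% and 37.97%, Trp-CCA-4-1 had 44.7% and 21.6%, and the alanine references had 57.98% and 8.50% (Ala-AGC-8-2), 37.7% and 16.7% (Ala-CGC-2-1) and 28.6% and 19.6% (Ala-TGC-3-1). Insertion reached 9.66% in Gln-CTG-1-1, 8.96% in Lys-CTT-3-1 and 8.35% in Gln-TTG-1-1, and it was the largest kind in Asn-GTT-2-1 (6.47%). Lys-CTT-3-1 (41.4% and 40.99%) lay above Lys-TTT-3-3 (12.4% and 12.4%) in both WT libraries.

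**Figure D1:**
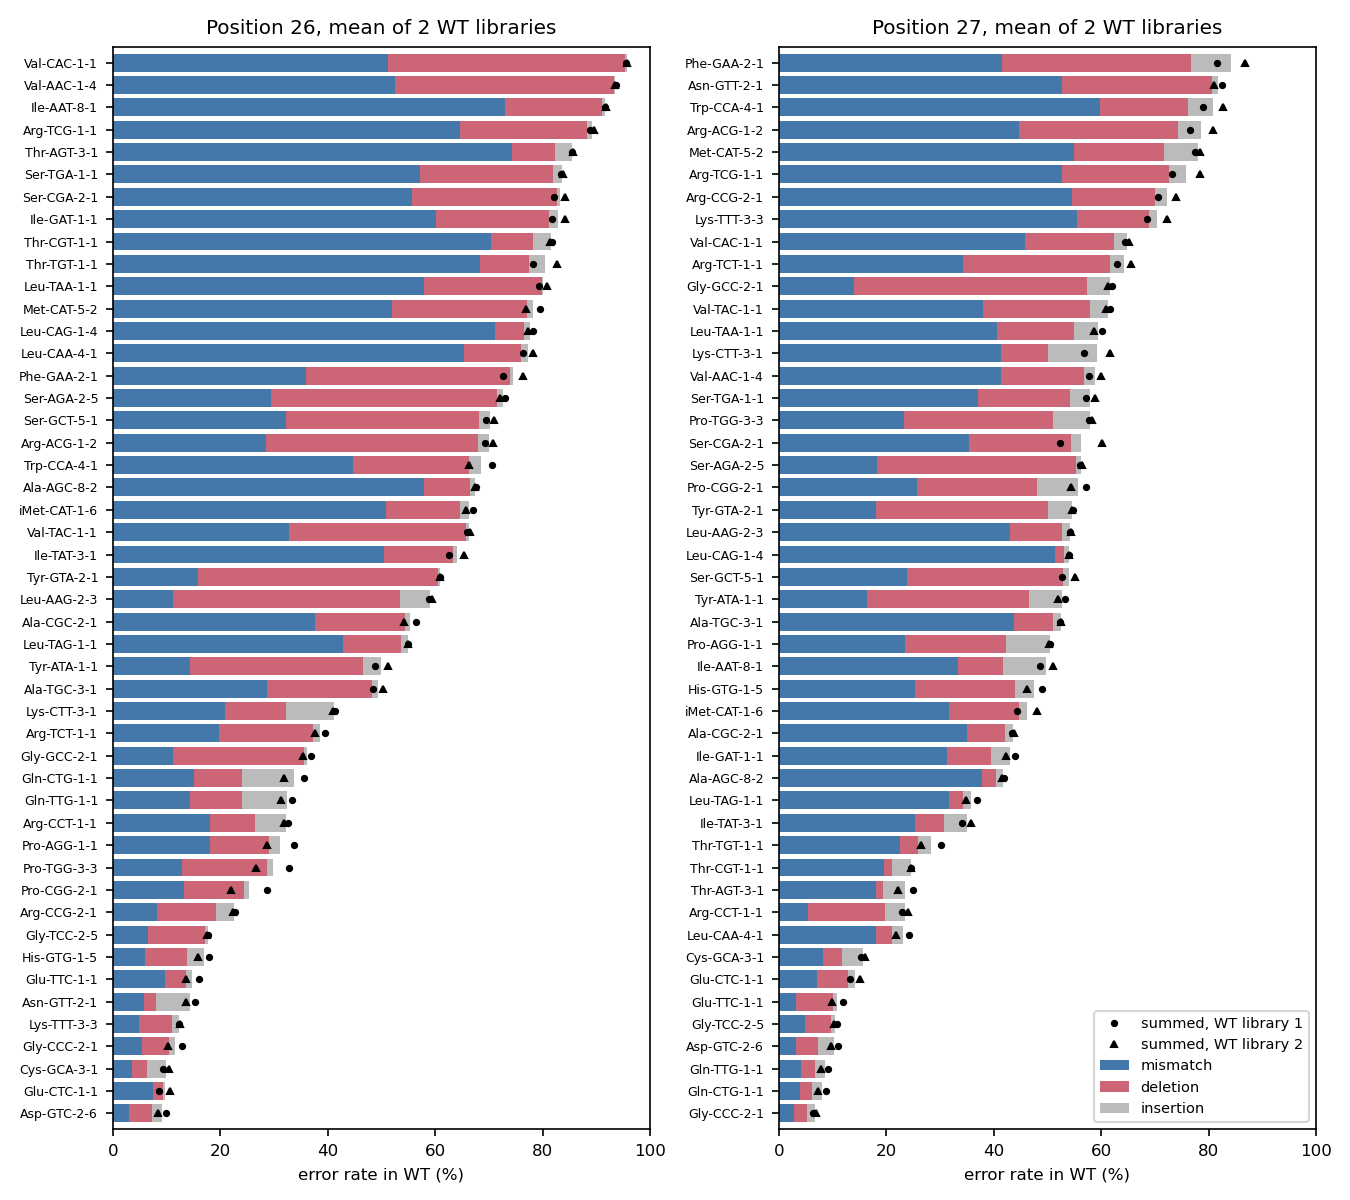
Error rate in WT at position 26 (left) and position 27 (right) for each of the 48 references, ordered by the summed error. Stacked bars give the mean mismatch, deletion and insertion rates in percent, and black symbols give the summed error of each WT library. The sum at position 26 spans 9.17% to 95.6%, and the bars of the tyrosine references are mostly deletion at both positions.

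At position 27, where PUS1 acts on uridines and TRMT1L on the guanosine of tyrosine tRNA, the WT summed error ranged over 6.65% to 84.1%. Mismatch was the largest kind in 39 references and deletion in 9. Phe-GAA-2-1 had the highest sum (81.5% and 86.8% in the WT libraries), followed by Asn-GTT-2-1 (82.4% and 81.02%), Trp-CCA-4-1 (78.9% and 82.8%), Arg-ACG-1-2 (76.6% and 80.8%) and Met-CAT-5-2 (77.5% and 78.3%). The ranges of the 2 WT libraries of these references overlapped between neighbours in this order, so the order within the group is not resolved. The lowest sums were in Gly-CCC-2-1 (6.38% and 6.93%), Gln-CTG-1-1 (8.69% and 7.30%) and Gln-TTG-1-1 (9.18% and 7.94%). Gly-GCC-2-1 differed from the mismatch pattern, with 43.3% deletion and 14.1% mismatch. Threonine references, high at position 26, had only 23.5% to 28.4% at position 27, whereas Asn-GTT-2-1 was low at position 26 (14.4%) and high at 27 (81.7%). Over the 48 references the WT levels of the neighbouring positions had a Pearson r of 0.356 and a Spearman rho of 0.301, which describes these references and shares libraries and base caller between the points.

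Deletion was the larger part at position 27 of the tyrosine references, with mismatch and deletion of 18.1% and 31.98% in Tyr-GTA-2-1 and 16.4% and 30.1% in Tyr-ATA-1-1 in WT, and insertion of 4.63% and 6.08%. Deletion also led in Ser-AGA-2-5 (18.2% and 37.1%, mismatch first), Ser-GCT-5-1 (23.8% and 29.1%) and Pro-TGG-3-3 (23.4% and 27.6%). The 3 proline references had sums of 50.4% to 57.9% with insertion of 6.95% to 8.16%, more than most references. Valine references had 58.9% to 64.9%, serine references 53.995% to 57.98%, lysine references 59.2% to 70.4% and alanine references 41.8% to 52.5%. Alanine references carried most of it as mismatch, 34.96% to 43.7%, with deletion of 2.71% to 7.42%. Glutamine and glutamate references were low, at 7.99% to 8.56% and 10.8% to 14.3%, and so were Asp-GTC-2-6 (10.97% and 9.75%) and Cys-GCA-3-1 (15.4% and 16.1%), each of them also under 20% at position 26 except the glutamine references.

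At position 28, the other PUS1 site, few references were high. The WT median was 26.6%, and 12 references reached 50%. Phe-GAA-2-1 had 88.9% and 91.3% in the WT libraries, Gln-CTG-1-1 86.8% and 88.96%, Gln-TTG-1-1 84.8% and 90.5%, Asn-GTT-2-1 75.8% and 77.8% and Ile-AAT-8-1 71.4% and 72.9%. These were mainly mismatches, 79.9% in Gln-CTG-1-1 and 74.3% in Phe-GAA-2-1. Error levels at positions 27 and 28 came in different combinations. Both glutamine references had 7.99% to 8.56% at 27 and 87.7% to 87.9% at 28. Trp-CCA-4-1 had 80.9% at 27 and 7.56% at 28, and Phe-GAA-2-1 and Asn-GTT-2-1 were high at both. The lowest WT value at 28 was in Tyr-GTA-2-1 (4.23% and 4.43%), next to its position 27 at 54.7%, followed by Trp-CCA-4-1 (8.08% and 7.03%) and Arg-TCG-1-1 (8.51% and 7.52%).

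At position 39, the PUS3 site that closes the stem against position 31, the WT median was 45.4%, and 2 references were under 20%. Trp-CCA-4-1 had 79.8% and 82.5% in the WT libraries, Gly-CCC-2-1 71.4% and 76.1%, Gly-GCC-2-1 71.8% and 70.8%, Arg-TCG-1-1 68.4% and 71.5% and Asn-GTT-2-1 68.8% and 69.6%. Mismatch made up most of these sums (67.8% in Trp-CCA-4-1) except in Gly-GCC-2-1, where deletion was 53.96% and mismatch 15.997%. Glu-TTC-1-1 was lowest, with 3.98% and 3.72%, followed by Glu-CTC-1-1 (15.5% and 17.5%) and Arg-CCT-1-1 (21.7% and 19.7%). The tyrosine references had 55.2% to 57.4% and the alanine references 21.3% to 43.9%. Across references, WT error at the 2 sides of a base pair was related most for 27 with 43 (Pearson r 0.459, Spearman rho 0.470). Elsewhere r was 0.0566 for 28 with 42, 0.110 for 29 with 41, 0.196 for 30 with 40 and 0.0303 for 31 with 39. In the same order, rho was 0.110, 0.241, 0.291 and -0.0156 (48 references each, which share libraries).

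The other stem positions were low in most references, and single references stood out at each. At position 29 Asn-GTT-2-1 had a summed error of 86.2% and 87.4% in the WT libraries, mostly mismatch (79.2%), and Ala-AGC-8-2 had 70.5% and 67.6%, whereas Ala-CGC-2-1 (25.8% and 25.4%) and Ala-TGC-3-1 (36.8% and 36.2%) were far lower. At position 30 the isoleucine references were among the highest, with 54.6% and 55.9% in Ile-TAT-3-1, 50.3% and 50.8% in Ile-AAT-8-1 and 49.9% and 47.6% in Ile-GAT-1-1. At position 31 Ser-AGA-2-5 (84.7% and 89.3%), Thr-AGT-3-1 (83.6% and 84.5%) and Thr-CGT-1-1 (75.8% and 75.8%) led, against a median of 21.5%. On the 3' strand, alanine, glycine and tyrosine references were among the highest. Ala-CGC-2-1 (66.7% and 69.4%) and Ala-TGC-3-1 (60.4% and 64.5%) led at position 40, where Ala-AGC-8-2 had 17.7% and 17.8%. Gly-CCC-2-1 led at position 41 (82.9% and 85.8%), and Tyr-GTA-2-1 at position 42 (68.2% and 69.6%), with mismatch and deletion of 27.8% and 39.7%. At position 43 deletion was the largest kind in 26 of 48 references and mismatch in 21. Ser-AGA-2-5 (68.2% and 68.7%), Ile-TAT-3-1 (67.6% and 68.1%) and Tyr-GTA-2-1 (66.7% and 67.6%) were highest there, and their libraries overlapped or lay within a few points of each other.

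Few members differed between TRMT1L KO and WT, and these lay in the tyrosine references and 2 alanine references. Each site was tested with limma on the arcsine square root of the rate, adjusted over all 3621 numbered sites, with a threshold of 0.05. For the summed error 2 members rose and 1 fell, against 0.221% of all numbered sites higher and 0.387% lower. For mismatch 4 members rose and 0 fell by limma (41 had an unadjusted p under 0.05 in either direction, as had 6.99% of all sites), against 0.221% of all sites higher and 0.331% lower. For deletion 2 members rose and 6 fell, against 0.58% of all sites higher and 0.608% lower. For insertion 1 member fell and 0 rose by limma (28 had an unadjusted p under 0.05, as had 5.69% of all sites), against 0.0276% lower and 0.0552% higher over all sites. These calls fell on 9 nucleotides: positions 26, 27, 30 and 31 of Tyr-GTA-2-1, 26 and 27 of Tyr-ATA-1-1, 26 of Ala-CGC-2-1, and 30 and 31 of Ala-TGC-3-1. The other 519 members, among them all at positions 28, 29 and 39 to 43, did not pass in any kind of error. For a single site an exact two-sided permutation test of 2 libraries against 2 cannot go below p = 0.333, so each call rests on spread estimated across sites. The count for the summed error was 6 without WT replicate 1 and 6 without TRMT1L KO replicate 2, and that for mismatch was 8 without TRMT1L KO replicate 2.

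In 155 members (29.4%) both TRMT1L KO libraries had a higher summed error than both WT libraries, and in 44 members (8.33%) both were lower. The shares over all numbered sites were 30.9% and 7.93%, so the members were near the background in this respect.

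**Figure D2:**
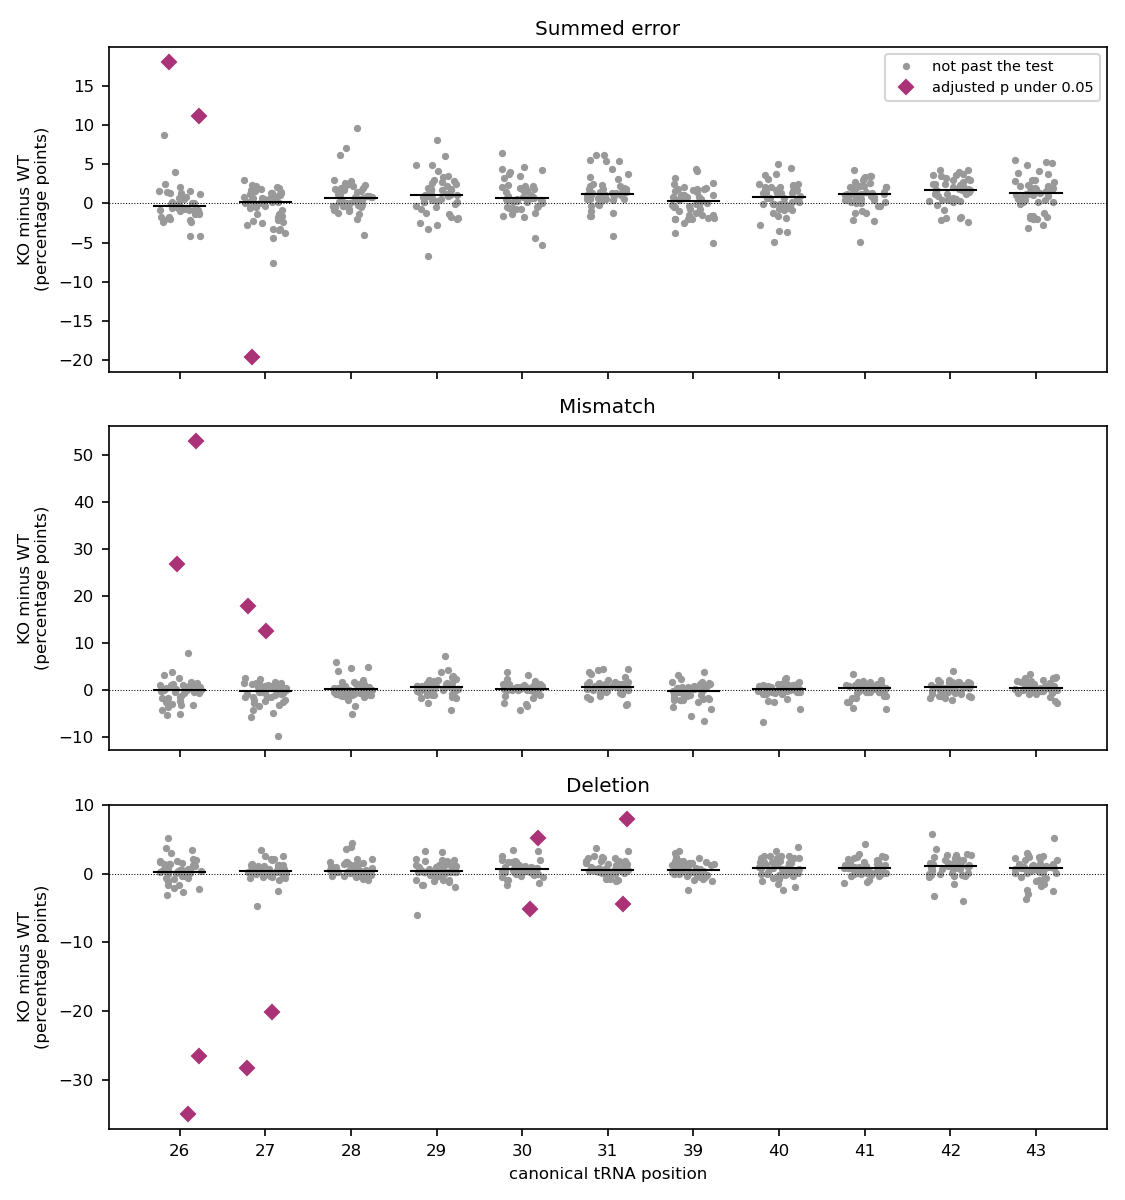
TRMT1L KO minus WT in percentage points for the summed error, mismatch and deletion, by canonical position. Each point is a reference (spread sideways for sight), bars are the median of 48 references, and diamonds mark sites with a limma adjusted p under 0.05. Medians lie near 0 at every position, while mismatch and deletion at positions 26 and 27 of the tyrosine references reach 53.1 and -35.02 points.

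In tyrosine tRNA the error at positions 26 and 27 changed its kind: deletions fell and mismatches rose at both positions of both references. At position 26 of Tyr-GTA-2-1 deletion was 9.21% and 9.91% in TRMT1L KO, against 43.6% and 45.6% in WT, and mismatch was 71.3% and 66.7% in TRMT1L KO, against 16.9% and 14.8% in WT. The libraries of the genotypes did not overlap in either kind, with changes of -35.02 points for deletion (limma adjusted p = 2.05e-11) and 53.1 points for mismatch (limma adjusted p = 1.1e-07). Among the 48 references its deletion rate at position 26 ranked 32 in TRMT1L KO and 1 in WT, counted down from the highest, and its mismatch rate ranked 3 in TRMT1L KO and 31 in WT. In TRMT1L KO this reference thus had a mismatch-led position 26 like most references, whereas in WT it was the most deletion-rich of all. Its summed error was 80.96% and 77.1% in TRMT1L KO, against 61.001% and 60.9% in WT (18.1 points at a limma adjusted p of 0.00158).

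In Tyr-ATA-1-1 deletion at position 26 was 5.08% and 6.68% in TRMT1L KO, against 30.96% and 33.7% in WT, and mismatch was 39.5% and 42.8% in TRMT1L KO, against 14.6% and 13.99% in WT. The changes were -26.5 points (limma adjusted p = 6.39e-11) and 26.8 points (limma adjusted p = 4.7e-06), again with no overlap. They offset each other, and the summed error of 47.97% and 53.1% in TRMT1L KO, against 48.8% and 51.2% in WT did not pass (0.523 points at a limma adjusted p of 0.977). Its sign turned when each library was centred on its median, without WT replicate 1 and without TRMT1L KO replicate 2. Its deletion rank moved down the 48 references, to 42 in TRMT1L KO against 10 in WT.

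At position 27 of Tyr-GTA-2-1, the nucleotide that the series assigns to TRMT1L, deletion was 3.43% and 3.99% in TRMT1L KO, against 31.3% and 32.7% in WT (-28.3 points at a limma adjusted p of 3.62e-12). Mismatch was 27.7% and 33.5% in TRMT1L KO, against 19.1% and 17.004% in WT (12.6 points at a limma adjusted p of 0.0119), and the call was lost without WT replicate 1 (limma adjusted p = 0.0624) or WT replicate 2 (0.169). Insertion was 0.587% and 0.863% in TRMT1L KO, against 4.42% and 4.85% in WT (-3.91 points at a limma adjusted p of 0.00813), and did not pass without TRMT1L KO replicate 1 (0.260) or 2 (0.164). The summed error, 31.7% and 38.4% in TRMT1L KO, against 54.8% and 54.5% in WT, fell by 19.6 points (limma adjusted p = 0.00608), the one decrease of the summed error among the members that passed. In Tyr-ATA-1-1 deletion at 27 was 10.3% and 9.75% in TRMT1L KO, against 30.5% and 29.8% in WT (-20.1 points at a limma adjusted p of 1.77e-08), and mismatch was 35.9% and 32.9% in TRMT1L KO, against 17.9% and 14.99% in WT (17.9 points at a limma adjusted p of 0.000308). In deletion rate at 27, Tyr-GTA-2-1 ranked 38 in TRMT1L KO and 4 in WT, and Tyr-ATA-1-1 ranked 27 in TRMT1L KO and 5 in WT.

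Over positions 26 and 27 as a unit, where the place of a deletion within the pair does not matter, the deletion rates of Tyr-GTA-2-1 added up to 12.6 and 13.9 points in TRMT1L KO, against 74.8 and 78.3 points in WT, and the mismatch rates to 98.99 and 100.2 points in TRMT1L KO, against 36.04 and 31.8 points in WT. For Tyr-ATA-1-1 the deletions added up to 15.4 and 16.4 points in TRMT1L KO, against 61.5 and 63.5 points in WT, and the mismatches to 75.3 and 75.6 points in TRMT1L KO, against 32.5 and 28.98 points in WT. Both TRMT1L KO libraries were thus lower in deletion and higher in mismatch than both WT libraries when the positions were added, too. These sums were chosen after the values had been seen and were not tested.

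**Figure D3:**
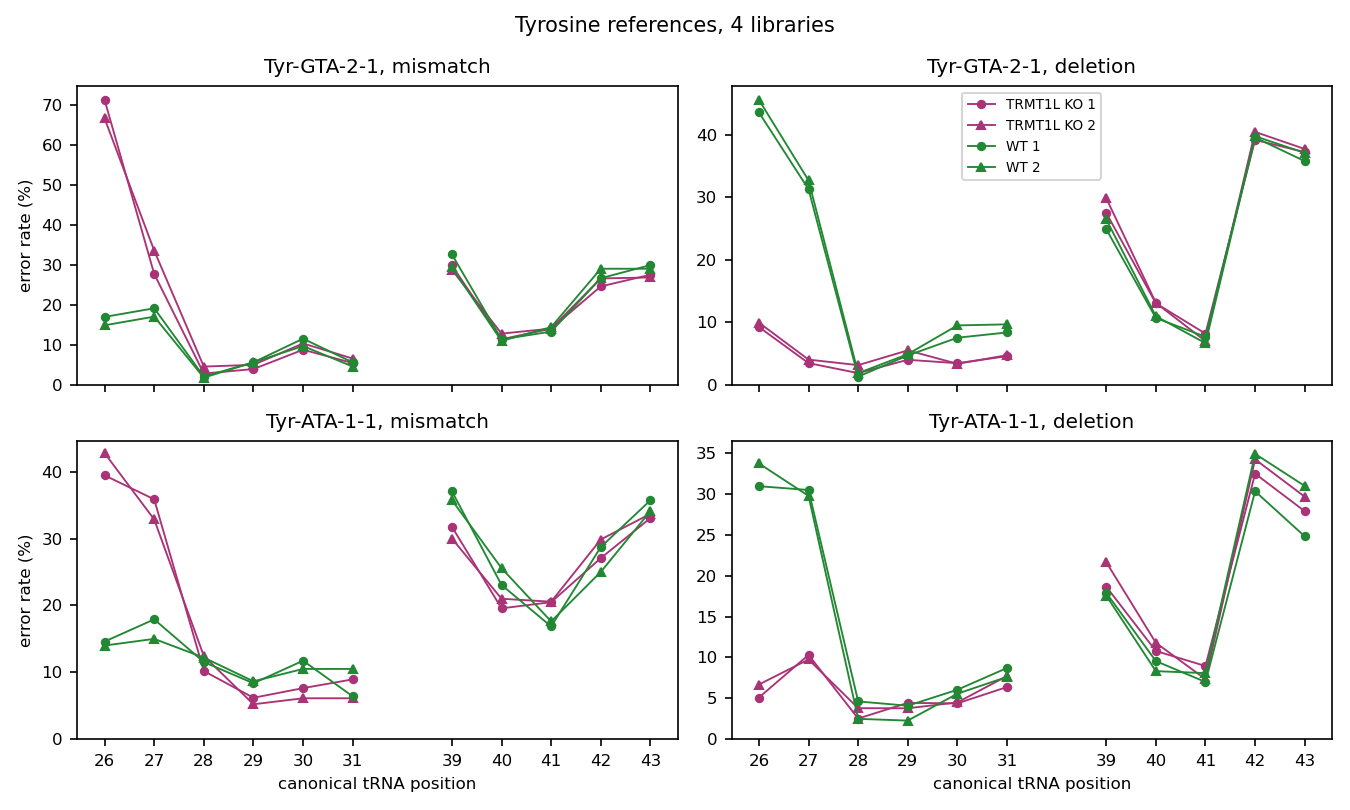
Mismatch (left) and deletion (right) rates in percent along positions 26 to 31 and 39 to 43 of Tyr-GTA-2-1 (top) and Tyr-ATA-1-1 (bottom). Purple lines are the 2 TRMT1L KO libraries and green lines the 2 WT libraries, and vertical axes differ between panels. The genotypes part at positions 26 and 27 and lie closer on the 3' strand. Deletions at 30 and 31 of Tyr-GTA-2-1 and mean mismatch at 39 and 40 of Tyr-ATA-1-1 are lower in TRMT1L KO.

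Further down the 5' strand, deletions also fell in Tyr-GTA-2-1 at the last 2 pairs before the loop. At position 30 they were 3.41% and 3.32% in TRMT1L KO, against 7.50% and 9.47% in WT (-5.11 points at a limma adjusted p of 0.000633). At position 31 they were 4.54% and 4.70% in TRMT1L KO, against 8.34% and 9.64% in WT (-4.37 points at a limma adjusted p of 0.00613). Between these and position 27, deletion at positions 28 and 29 of the same reference differed by 0.921 and -0.0399 points, with limma adjusted p-values of 0.418 and 0.979. Insertion at position 30, 2.93% and 2.68% in TRMT1L KO, against 0.967% and 1.04% in WT, had no overlap of libraries but did not pass (limma adjusted p = 0.157), and the summed error did not pass at position 30 (-4.38 points at a limma adjusted p of 0.353) or 31 (-4.10 points at a limma adjusted p of 0.448). In Tyr-ATA-1-1 deletion was 4.37% and 4.49% in TRMT1L KO, against 6.04% and 5.56% in WT at position 30 and 6.37% and 7.72% in TRMT1L KO, against 8.70% and 7.61% in WT at position 31, and neither passed (limma adjusted p = 0.448 and 0.6997). Its summed error at 30 had the most negative difference of all references at that position, 13.99% and 11.8% in TRMT1L KO, against 19.4% and 17.1% in WT (-5.30 points at a limma adjusted p of 0.262). Whether the tyrosine references differ from each other at positions 30 and 31 was not tested.

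The alanine references were not alike at the start of the stem. In Ala-CGC-2-1 position 26 rose, Ala-TGC-3-1 had higher values that did not pass, and Ala-AGC-8-2 had nearly equal values in both genotypes. At position 26 of Ala-CGC-2-1 the summed error was 67.2% and 65.9% in TRMT1L KO, against 56.4% and 54.2% in WT (11.2 points at a limma adjusted p of 0.0448). Mismatch (7.79 points at a limma adjusted p of 0.206) and deletion (3.70 points, 0.372) both contributed without passing by themselves. The call was lost when libraries were centred on their medians (0.0926) and without TRMT1L KO replicate 1 (0.144). In Ala-TGC-3-1 the summed error at 26 was 59.5% and 56.7% in TRMT1L KO, against 48.4% and 50.3% in WT (8.74 points at a limma adjusted p of 0.202). In Ala-AGC-8-2 it was 67.7% and 68.4% in TRMT1L KO, against 67.6% and 67.4% in WT (0.588 points at a limma adjusted p of 0.971), and its sign turned with centring.

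Position 27 had lower values in TRMT1L KO in Ala-TGC-3-1. Its mismatch rate there was 32.9% and 35.1% in TRMT1L KO, against 43.8% and 43.6% in WT, a difference of -9.72 points with no overlap of libraries (limma adjusted p = 0.0603). It missed the threshold here, and passed without the variance trend (0.0359), without the robust setting (0.0480), with a filter on low error (0.0489) and without TRMT1L KO replicate 2 (0.0197). The summed error at 27 was 43.2% and 46.5% in TRMT1L KO, against 52.4% and 52.5% in WT in Ala-TGC-3-1 (-7.58 points at a limma adjusted p of 0.285), 40.7% and 43.9% in TRMT1L KO, against 43.3% and 43.8% in WT in Ala-CGC-2-1 (-1.33 points, 0.918), and 39.3% and 43.03% in TRMT1L KO, against 41.96% and 41.6% in WT in Ala-AGC-8-2 (-0.602 points, 0.971). At position 28 both TRMT1L KO libraries were above both WT libraries in Ala-CGC-2-1, 51.97% and 52.7% in TRMT1L KO, against 44.9% and 40.5% in WT, the highest difference at that position (9.61 points at a limma adjusted p of 0.185), and it passed without WT replicate 1 (0.0139). In Ala-TGC-3-1 position 28 had 42.8% and 39.5% in TRMT1L KO, against 35.1% and 33.03% in WT (7.07 points at a limma adjusted p of 0.330).

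In Ala-TGC-3-1 deletions rose at positions 30 and 31, the pairs next to the anticodon loop. Deletion at position 30 was 12.8% and 14.7% in TRMT1L KO, against 8.71% and 8.25% in WT (5.23 points at a limma adjusted p of 0.0175). The call was lost without WT replicate 2 (0.0528) and without TRMT1L KO replicate 2 (0.156). Deletion at position 31 was 27.5% and 28.3% in TRMT1L KO, against 18.8% and 21.2% in WT (7.92 points at a limma adjusted p of 0.0324). This call was lost without WT replicate 1 (0.150), without TRMT1L KO replicate 1 (0.205) and without TRMT1L KO replicate 2 (0.233). At position 29, just before them, deletion was 17.6% and 20.9% in TRMT1L KO, against 26.03% and 24.4% in WT, lower in both TRMT1L KO libraries (-5.95 points at a limma adjusted p of 0.164). Deletion rates over positions 29 to 31 added up to 57.9 and 63.9 points in TRMT1L KO, against 53.6 and 53.8 points in WT, with the difference at 29 opposite in sign to those at 30 and 31. Insertion at 31, 3.31% and 3.12% in TRMT1L KO, against 6.92% and 6.45% in WT, was lower in both TRMT1L KO libraries too, and did not pass (limma adjusted p = 0.156). In Ala-CGC-2-1 deletion was 7.99% and 7.65% in TRMT1L KO, against 6.41% and 5.17% in WT at position 30 and 12.9% and 13.5% in TRMT1L KO, against 11.2% and 10.8% in WT at position 31, with limma adjusted p of 0.373 and 0.478. Ala-AGC-8-2 had 10.5% and 11.3% in TRMT1L KO, against 11.9% and 11.6% in WT at position 30, where the genotypes' order was the opposite (-0.890 points at a limma adjusted p of 0.818).

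**Figure D4:**
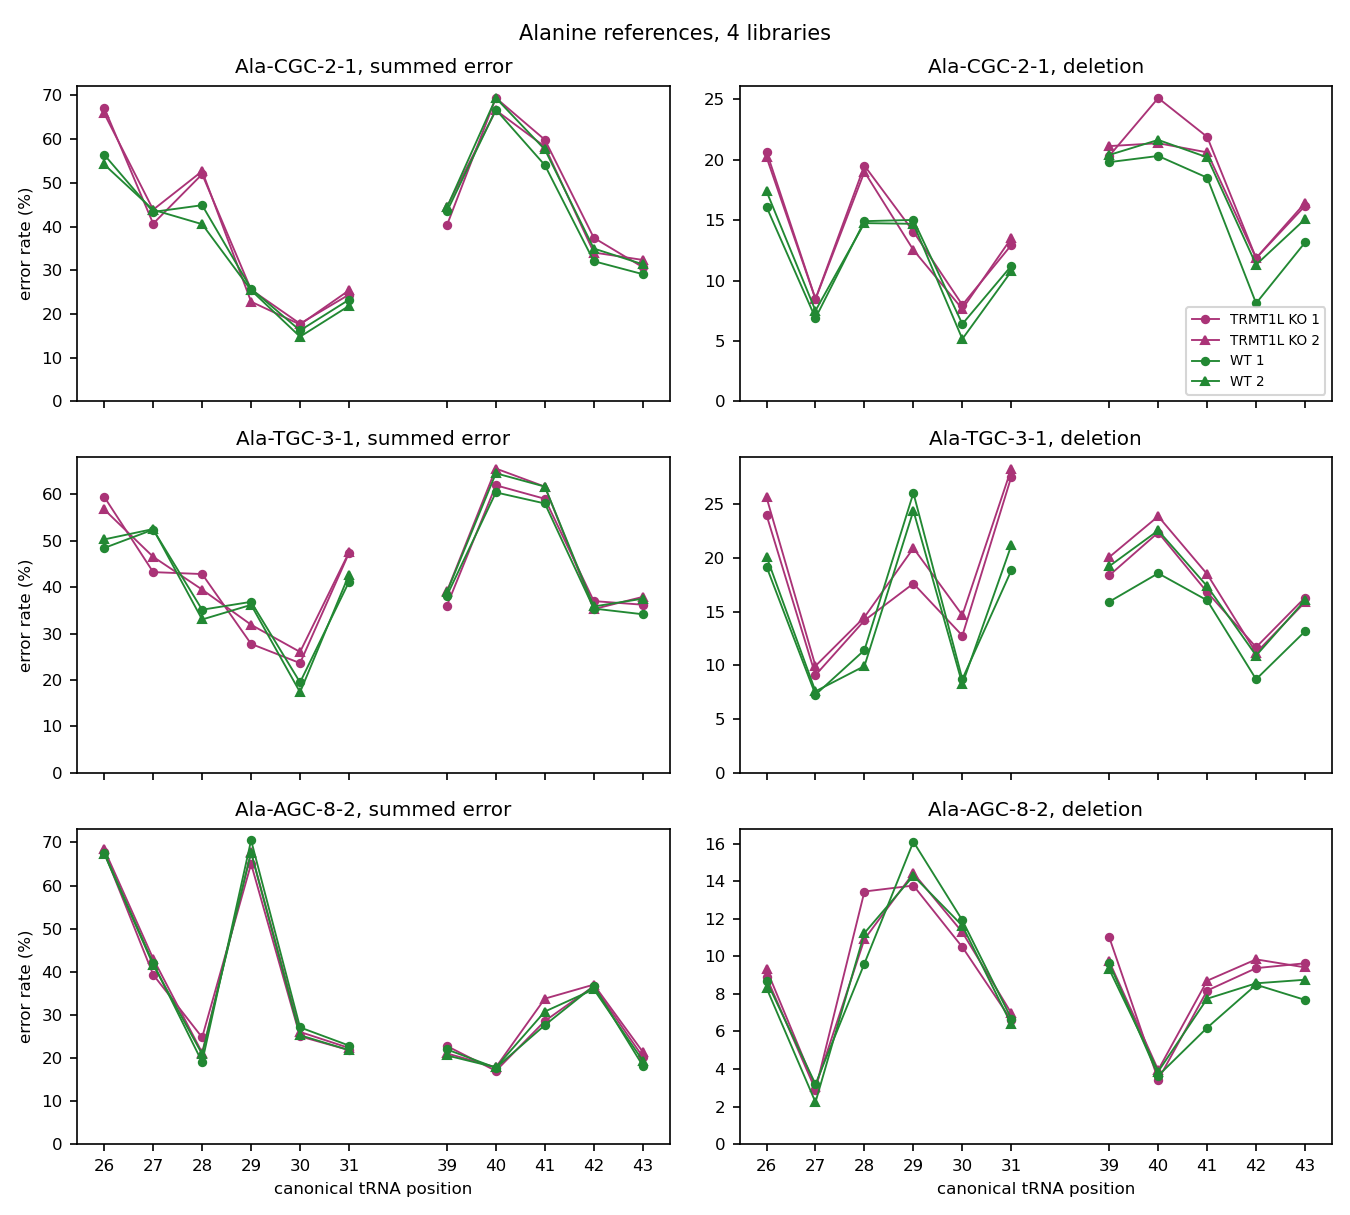
Summed error (left) and deletion (right) in percent along positions 26 to 31 and 39 to 43 of Ala-CGC-2-1, Ala-TGC-3-1 and Ala-AGC-8-2. Purple lines are the TRMT1L KO libraries and green lines the WT libraries, and vertical axes differ between panels. The genotypes part in the summed error at positions 26 and 28 of Ala-CGC-2-1 and at positions 26 to 30 of Ala-TGC-3-1. They also part in deletions at positions 29 to 31 of Ala-TGC-3-1, and the summed error of Ala-AGC-8-2 lies close in all libraries.

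Outside tyrosine and these 2 alanine references, no site of positions 26 and 27 passed in any kind of error. Few sites passed anywhere, 0.221% of all numbered sites higher and 0.387% lower by limma in the summed error. For deletion the shares were 0.58% and 0.608%, and for mismatch 0.221% and 0.331%. At position 26 the difference in mismatch in the other 44 references ranged over -5.34 to 3.24 points with a median of -0.108, and that of deletion over -3.16 to 3.43 points with a median of 0.329. At position 27 mismatch differed by -5.80 to 2.48 points (median -0.201) and deletion by -4.68 to 3.45 points (median 0.337). Of the references high at position 26 in WT, Val-CAC-1-1 had a summed error of 93.99% and 95.3% in TRMT1L KO, against 95.5% and 95.8% in WT, Ile-AAT-8-1 had 90.01% and 89.8% in TRMT1L KO, against 91.6% and 91.8% in WT, and Thr-AGT-3-1 had 83.9% and 85.95% in TRMT1L KO, against 85.4% and 85.6% in WT. The most negative difference at 26 was in Ile-GAT-1-1, 79.02% and 78.6% in TRMT1L KO, against 81.7% and 84.2% in WT (-4.17 points at a limma adjusted p of 0.456). At 27 the highest was in Glu-CTC-1-1, 17.1% and 17.5% in TRMT1L KO, against 13.3% and 15.2% in WT (3.02 points, 0.552). The median difference in the summed error was -0.336 points over the 46 references outside tyrosine at position 26 and 0.182 points at position 27, both below the 0.818 points of all numbered sites. The library medians given above are over all 48 references, tyrosine included. They differed in the other direction, higher in TRMT1L KO at position 26 and lower at position 27. Over the 46 references outside tyrosine, the library medians at position 26 were 63.9% and 62.5% in TRMT1L KO, against 60.7% and 62.4% in WT. At position 27 they were 53.1% and 50.5% in TRMT1L KO, against 52.4% and 53.3% in WT, and the genotypes overlapped. Of the 46 references outside tyrosine, both TRMT1L KO libraries were above both WT libraries in 7 (15.2%) at position 26 and in 11 (23.9%) at position 27, against 30.9% of all numbered sites. Both were below in 8 (17.4%) at position 26 and in 7 (15.2%) at position 27, against 7.93% of all numbered sites.

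No reference passed at positions 28 and 39, where values in TRMT1L KO lay close to those in WT in most references. Over all numbered sites 0.221% rose and 0.387% fell by limma in the summed error, so 0 of 48 references is near the background. Shares for deletion were 0.58% and 0.608%, and for mismatch 0.221% and 0.331%. At position 28 the difference had a median of 0.648 points and a range of -3.98 (Asn-GTT-2-1) to 9.61 points (Ala-CGC-2-1), with 0 of 48 references past limma. Libraries did not overlap in 14 references higher in TRMT1L KO (29.2%, against 30.9% of all numbered sites) and in 1 lower (2.08%, against 7.93%). Of the highest references there, Phe-GAA-2-1 had 89.2% and 89.3% in TRMT1L KO, against 88.9% and 91.3% in WT, and Gln-CTG-1-1 had 88.4% and 84.9% in TRMT1L KO, against 86.8% and 88.96% in WT. At position 39 the median difference was 0.301 points and the range -5.12 (His-GTG-1-5) to 4.46 points (Glu-CTC-1-1), with 0 of 48 past limma. Here 5 references were higher without overlap (10.4%, against 30.9% of all numbered sites) and 3 were lower (6.25%, against 7.93%). Trp-CCA-4-1, the highest at 39, had 76.9% and 77.7% in TRMT1L KO, against 79.8% and 82.5% in WT (limma adjusted p = 0.524), and Glu-TTC-1-1, the lowest, had 3.76% and 3.80% in TRMT1L KO, against 3.98% and 3.72% in WT. His-GTG-1-5 had 43.7% and 36.9% in TRMT1L KO, against 42.8% and 47.98% in WT (-5.12 points at a limma adjusted p of 0.632), and the libraries of the genotypes overlapped. Glu-CTC-1-1 had 19.2% and 22.8% in TRMT1L KO, against 15.5% and 17.5% in WT (limma adjusted p = 0.466), with no overlap. For mismatch alone, differences at 39 ranged over -6.57 to 3.86 points, and Tyr-ATA-1-1 had -5.52 points.

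**Figure D5:**
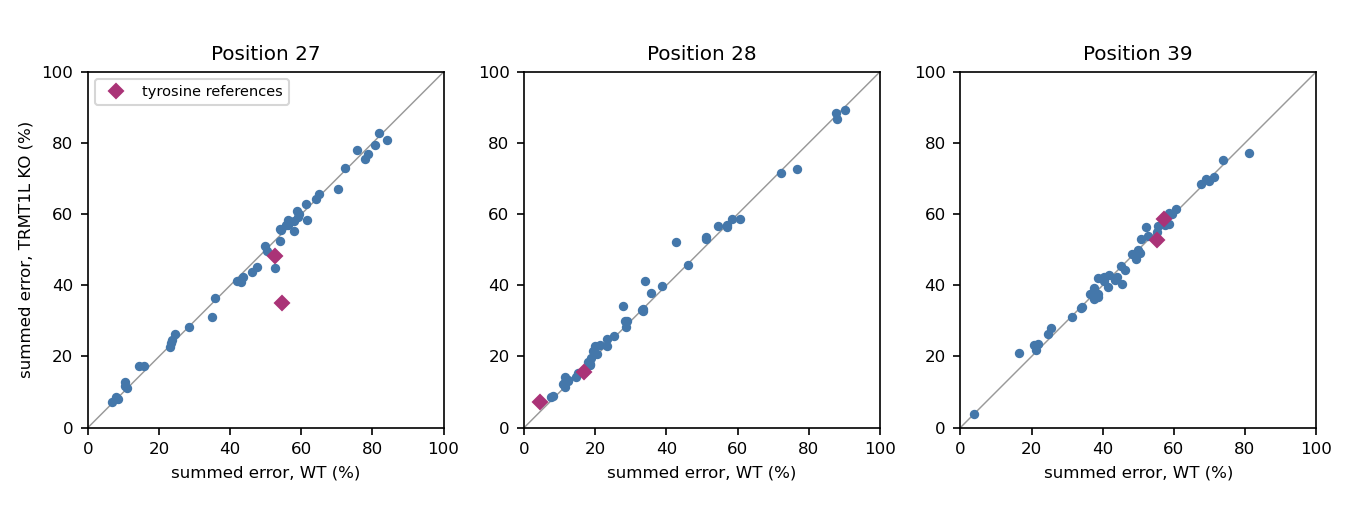
Summed error in TRMT1L KO (vertical axis) against WT (horizontal axis), in percent, at the pseudouridine positions 27, 28 and 39. Each point is the mean of 2 libraries of a reference, diamonds are the tyrosine references, and the line marks equal values. Tyr-GTA-2-1 lies farthest below the line at position 27, with 35.1% in TRMT1L KO and 54.7% in WT, and the points at 28 and 39 follow the line.

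On the 3' strand (positions 39 to 43, 240 sites) no site passed limma in any kind of error, where 0.221% of all numbered sites rose and 0.387% fell in the summed error. For deletion 0.58% of all numbered sites rose and 0.608% fell, and for mismatch 0.221% and 0.331%. At an unadjusted p under 0.05 were 13 sites (5.42%) for the summed error, against 9.36% of all numbered sites, and differences ranged over -5.12 to 5.55 points with a median of 1.11. On the 5' strand (27 to 31, 240 sites) the range was -19.6 to 9.61 points with a median of 0.773. The partner of the tyrosine position 27 did not pass: position 43 of Tyr-GTA-2-1 had a summed error of 65.7% and 65.4% in TRMT1L KO, against 66.7% and 67.6% in WT (-1.62 points at a limma adjusted p of 0.869), and that of Tyr-ATA-1-1 had 62.6% and 65.4% in TRMT1L KO, against 62.1% and 65.9% in WT (-0.0514 points, 0.997). The highest differences at positions 40 to 43 were in Arg-ACG-1-2 at 43 (5.55 points at a limma adjusted p of 0.285), Ile-AAT-8-1 at 40 (5.03 points, 0.298), Pro-CGG-2-1 at 42 (4.24 points, 0.658) and Tyr-ATA-1-1 at 41 (4.22 points, 0.524). The most negative were in Asn-GTT-2-1 at 41 (-4.99 points at a limma adjusted p of 0.524) and 43 (-3.16 points, 0.773), Ile-GAT-1-1 at 40 (-4.90 points, 0.596) and Tyr-GTA-2-1 at 42 (-2.34 points, 0.803). On the 5' strand, Ile-GAT-1-1 had the highest difference at 29, 35.8% and 33.4% in TRMT1L KO, against 27.4% and 25.5% in WT (8.14 points at a limma adjusted p of 0.185), which passed without WT replicate 1 (0.0483), and His-GTG-1-5 the highest at 31, 31.7% and 36.4% in TRMT1L KO, against 27.9% and 27.8% in WT (6.21 points, 0.421).

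The kind of error that was largest in both libraries of a genotype differed between TRMT1L KO and WT at 12 of the 528 members and at 41 of the 3621 numbered sites. At positions 26 and 27 of both tyrosine references it was mismatch in TRMT1L KO and deletion in WT. In the other 8 members the 2 largest kinds lay within a few points of each other in both genotypes, as at position 39 of Leu-CAG-1-4, where deletion and mismatch were 26.4% and 25.5% in TRMT1L KO and 24.97% and 27.5% in WT. Counted over the 48 references at position 26 by the means of each genotype, mismatch was largest in 36 in TRMT1L KO and 32 in WT, and deletion in 12 in TRMT1L KO and 15 in WT.

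Whether a reference changed differently from the others at its position was tested with limma on each rate minus the median of all references at that position in the same library, for mismatch and deletion, adjusted over 3618 sites. That median included the tyrosine references and itself moved. For mismatch at 26 it was 33.6% and 31.7% in TRMT1L KO, against 30.4% and 28.4% in WT. The median difference there was -0.0568 points. For deletion at 27 it was 12.1% and 11.4% in TRMT1L KO, against 13.9% and 13.8% in WT. The median difference there was 0.337 points. Such shifts enter the relative values of every reference. For mismatch 2 members passed higher and 1 lower, against 0.0829% and 0.193% of all sites. For deletion 4 members passed lower, against 0.111% of all sites. Mismatch at position 26 passed higher in Tyr-GTA-2-1, with 49.8 points (limma adjusted p = 0.000497), and in Tyr-ATA-1-1, with 23.6 points (0.0236). Deletion passed lower in Tyr-GTA-2-1 at 26 (-34.4 points at a limma adjusted p of 0.00612) and 27 (-26.1 points, 0.00612), and in Tyr-ATA-1-1 at 26 (-25.9 points, 0.0261) and 27 (-17.98 points, 0.00612). The third mismatch call was the decrease at position 27 of Ala-TGC-3-1 (-10.7 points at a limma adjusted p of 0.0353). This call did not pass with the mean over references in place of the median (limma adjusted p = 0.175). It was lost without any 1 of the 4 libraries, with adjusted p of 0.0994 to 0.165. The 4 deletion calls were lost without either TRMT1L KO library (limma adjusted p of 0.161 or more) and passed without either WT library. The mismatch call of Tyr-ATA-1-1 was lost without WT replicate 1 (0.0881) or 2 (0.0827), and that of Tyr-GTA-2-1 passed without any 1 library (at most 0.00150). Mismatch at position 27 did not pass this test in Tyr-GTA-2-1 (limma adjusted p = 0.219) or Tyr-ATA-1-1 (0.0624). Nor did the deletions at positions 30 and 31 of Tyr-GTA-2-1 (0.425 at both) and Ala-TGC-3-1 (0.437 and 0.236), so these were not shown to differ from the other references. Mismatch of Tyr-ATA-1-1 at 39 (-5.98 points at a limma adjusted p of 0.387) and 40 (-4.36 points, 0.582) did not pass either.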

How the data were processed

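The deposited values were mismatch, deletion and insertion rates as a fraction from 0 to 1, in 12 sheets (3 kinds, 4 libraries) of 48 references and 90 nucleotides, with another sheet of canonical numbers, per the file headers. The authors' rates were used as deposited. The tools named for this step, per the submitters' processing notes, are bedtools, BWA and SAMtools. No source used here gives their versions, the base caller, read filters, a genome build or how reads that fit several references were treated, so no coordinates are given. Sequences of the references were not used here. Rates and their sum were turned into percentages, and a difference is TRMT1L KO minus WT in points. The 599 nucleotides of the adaptor and 100 unnumbered ones were not tested. Rates were tested with limma 3.58.1 in R 4.3.3 (arcsine square root, lmFit, then eBayes with robust and trend options). Each kind was adjusted by Benjamini-Hochberg over 3621 sites. No further correction was made across kinds. For the test against other references (eBayes, robust, no trend), positions with at least 10 references were used. Python 3.11.15 with pandas 2.3.3 and numpy 2.4.6 served for the rest. The tests were checked on simulated data. Named sites were positions 26 and 27 of tyrosine and alanine references, every member past the threshold, the 5 highest and 3 lowest references in WT at positions 26, 27, 28 and 39, and the largest rise and fall at each position. Other sites given were chosen after their values were seen. The members and lists were chosen with earlier results of these data known. Alternatives were other transformations, variance settings, centring, a low-error filter, a replicate block and leaving out each library.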

Additional observations from a re-analysis of the deposited data

How the results depend on the processing

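Counts of members past the threshold kept within 1.5 times their value under other transformations, variance settings, centring, the wider set of sites and the low-error filter. Leaving out a library gave 3 to 6 for the summed error (3 with all libraries), 3 to 8 for mismatch (4), 7 to 10 for deletion (8), 0 to 2 for insertion (1) and 2 to 5 for the test against other references (7). Same-numbered libraries of the genotypes did not deviate together (correlations of -0.251 to -0.119). The negative sign means that unlike-numbered libraries tended to deviate together, weakly, and the cause of this was not tested. The replicate block gave 2 members for the summed error, 5 for mismatch, 9 for deletion, 0 for insertion and 5 against other references; it ended the call at position 26 of Ala-CGC-2-1 (limma adjusted p = 0.107) and that of insertion at 27 of Tyr-GTA-2-1 (0.422), and mismatch at 27 of Ala-TGC-3-1 passed (0.0398). Against other references it ended the deletion calls at 26 and 27 of Tyr-ATA-1-1 (0.0511 each) and the mismatch call of Ala-TGC-3-1 (0.105). With the numbers crossed, a choice made after the data were seen, the counts were 8, 7, 5 and 3 for the summed error, mismatch, deletion and insertion. Deletion calls then ended at 31 of Tyr-GTA-2-1 (0.0692) and at 30 and 31 of Ala-TGC-3-1 (0.0998 and 0.163), and mismatch at 27 of Ala-TGC-3-1 passed (0.0125). The WT median at 26 was 59.9% to 60.1% without either library, at 27 52.6% to 53.3%, at 28 25.3% to 25.9% and at 39 43.9% to 46.5%. Centring turned the sign of values that had not passed, at 26 of Ala-AGC-8-2 (mismatch -0.246, summed error -0.678 points), 27 of Ala-AGC-8-2 (deletion -0.334) and 26 of Tyr-ATA-1-1 (summed error -0.743). Leaving out a library turned others that had not passed, which ranged over -0.232 to 0.727 for deletion at 27 of Ala-AGC-8-2, over -0.0833 to 0.483 for insertion at 27 of Ala-AGC-8-2, over -3.004 to 0.906 for mismatch at 27 of Ala-AGC-8-2, over -2.46 to 1.26 for the summed error at 27 of Ala-AGC-8-2, over -2.93 to 0.268 for the summed error at 27 of Ala-CGC-2-1, over -0.468 to 0.119 for insertion at 26 of Ala-TGC-3-1, over -0.0568 to 0.162 for insertion at 27 of Ala-TGC-3-1, over -0.159 to 0.441 for insertion at 30 of Ala-TGC-3-1, over -2.03 to 3.07 for the summed error at 26 of Tyr-ATA-1-1, over -0.00150 to 0.0766 for insertion at 26 of Tyr-GTA-2-1 and over -1.48 to 0.181 for insertion at 31 of Tyr-GTA-2-1 (points). The cause of these shifts was not tested. Unknown depth limits every value, since thinly covered references could not be set apart.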
